A study of Mus musculus with 12 samples.

Results

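Bulk RNA of mouse liver was compared after carbon tetrachloride (CCl4), a solvent used to injure liver, and after its vehicle. The comparison used 6 of the 12 libraries of the series: 3 CCl4 libraries, numbered 1 to 3 here (the third carries the number 4 in its own name), and 3 vehicle libraries. Levels are in TPM, a length-corrected share of the library's transcripts. A gene was taken when 3 or more of the 6 libraries held it at 1 TPM or above, which left 10385 of 57180 gene IDs.

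CCl4 is turned into a reactive radical by cytochrome P450 enzymes, above all CYP2E1, in the hepatocytes around the central vein. Those cells die, neutrophils and monocytes enter, stellate cells and macrophages remodel the matrix, and surviving hepatocytes divide to replace what was lost. Hepatocytes in repair keep some functions, such as albumin synthesis, and set back others, such as drug metabolism and the genes that differ between males and females.

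The libraries were made from poly(A) RNA of whole liver tissue of C57 mice, per the labels, with no transgene named in either liver group. The design text speaks of hepatocytes and of 3 biological replicates per group, while the sample labels say liver. Dose, route, number of injections, time after the last one, sex and age were not stated in the labels, so the values belong to an unstated time after exposure. The tissue label fits its markers: all 10 hepatocyte markers passed the filter, with a summed deposited TPM of 69940 to 77775 after vehicle and 13498 to 31821 after CCl4. The other 6 libraries, from skin, were not analysed here.

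The scale of the measurement came first, because 1 class of RNA took most of the CCl4 libraries. Mitochondrially encoded genes and 6 near-copy pseudogenes held 28.4%, 25.9% and 25.7% of the TPM in vehicle libraries 1 to 3. They held 82.1%, 80.2% and 68.1% in CCl4 libraries 1 to 3 (mean 26.7% ± 1.51 against 76.8% ± 7.60, SD, n = 3 per group, two-sided exact permutation p = 0.1, the smallest this design allows). The groups did not overlap, and CCl4 library 3 was the lowest of its group. Since TPM adds up to a fixed total, this share lowers every other gene, and whether it reflects the tissue or the preparation was not tested.

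Each gene was therefore tested on 3 scales with limma at a Benjamini-Hochberg adjusted p under 0.05. These were the deposited TPM, TPM brought back to its full total after removal of the mitochondrial genes and near copies (rescaled TPM below), and median-ratio scaling, which sets the median gene to no change. Of the genes tested, 61.4% were called on deposited TPM (10.3% higher and 51.1% lower), 71.0% on rescaled TPM (66.8% higher and 4.20% lower) and 42.1% with median-ratio scaling (20.8% higher and 21.3% lower). Over all genes the median log2 change stood at -0.59, 0.85 and 0.00 on these scales. A direction was read only for genes called the same way on all 3 scales. That held for 1048 genes that rose (10.1% of 10364) and 435 that fell (4.20%), together 14.3%. Every rescaled log2 change below stands beside that overall median of 0.85, and a gene that did not pass on all 3 scales is given by its values alone. With so many genes called, a gene set apart by its groups not overlapping is common: this held for 70.2% of genes in deposited TPM and 77.6% in rescaled TPM (71.5% with CCl4 above and 6.09% with CCl4 below).

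**Figure D1:**
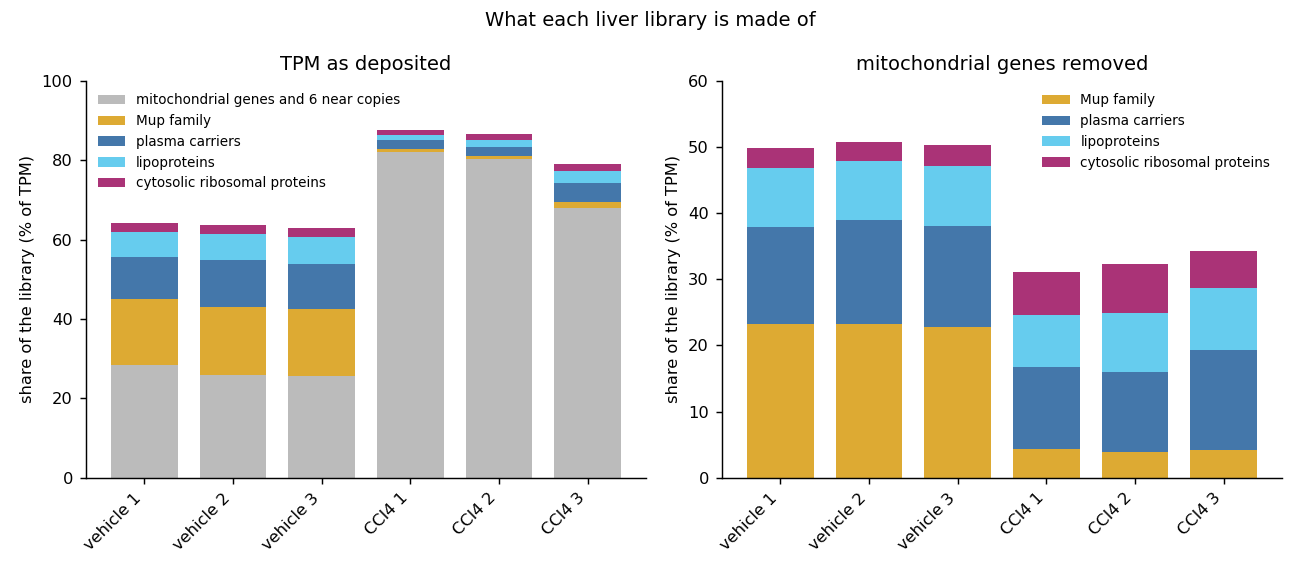
Share of each liver library (percent of TPM, vertical axis) held by 5 groups of genes, as stacked bars for vehicle libraries 1 to 3 and CCl4 libraries 1 to 3; left, deposited TPM; right, after removal of mitochondrial genes and rescaling (the left axis ends at 100 and the right at 60). The mitochondrial part fills 68.1% to 82.1% of the CCl4 libraries, and on the right the major urinary protein (Mup) part is smaller in all 3 of them.

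The CCl4 libraries were less alike than the vehicle libraries. Correlations of rescaled log2 values across genes were 0.977 to 0.989 among vehicle libraries and 0.906 to 0.954 among CCl4 libraries. CCl4 library 3 lay nearest to the vehicle libraries (0.895 to 0.905) and CCl4 library 2 farthest (0.746 to 0.753). CCl4 library 2 also held blood RNA: Hba-a2, an alpha-globin chosen after its values were seen, was at 398 deposited TPM there and between 0.79 and 4.41 in the remaining 5 libraries. The whole red blood cell list summed to 4388 rescaled TPM there and to 36.2 to 88.3 elsewhere. Vehicle library 2 was low for Atf3, a stress-induced transcription factor that was also picked after its values were seen: it was at 146, 0.823 and 83.8 rescaled TPM in vehicle libraries 1 to 3.

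The list of 14 male-biased genes, which are kept high in male liver by pulses of growth hormone acting through STAT5B, fell almost as a whole: 13 of 14 members fell and 0 rose. Its median log2 change was -3.49 on deposited TPM and -1.93 on rescaled TPM, and by CCl4 library the rescaled median was -1.80, -2.00 and -1.63. The list was described with knowledge of earlier results from these data, so its direction is not independent evidence. Mup7, a major urinary protein that carries pheromones, was at 59258, 59024 and 58100 rescaled TPM after vehicle and 3415, 1801 and 2139 after CCl4. Its rescaled log2 change was -4.64 ± 0.23 (SE, n = 3 per group, limma adjusted p = 7.67e-05). Elovl3, an elongase of very long fatty acids, was at 223, 553 and 380 after vehicle and 19.7, 12.1 and 13.7 after CCl4. Every CCl4 library lay far below every vehicle library for both genes. Hsd3b5, a keto-steroid reductase of male liver, fell by 3.85 ± 0.50 and Cyp4a12a, which makes 20-HETE from arachidonic acid, fell by 2.26 ± 0.35 on the rescaled log2 scale. Nat8f5, an acetyltransferase, was the member that did not pass (rescaled log2 change -0.29, adjusted p = 0.23). Without any 1 library, 12 or 13 members still fell.

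The other side of the sex difference could hardly be measured. Of 16 female-biased genes, 3 passed the filter on low values, and 13 stayed below it with no library above 2.73 deposited TPM. None of the 3 was called the same way on all 3 scales. That count was also 0 with unadjusted p under 0.05 by limma on all 3, and with robust limma. On rescaled TPM alone 2 were called higher, Abcd2 and Cyp2a4. Cyp2a4, a steroid hydroxylase, was at 2.49, 0.621 and 2.03 rescaled TPM after vehicle and 3.07, 15.2 and 41.9 after CCl4, so the 2 highest values came from CCl4 libraries 2 and 3. Of 12 tested genes of the growth hormone axis itself 1 rose and 2 fell, against 10.1% and 4.20% of all genes. Ghr, the growth hormone receptor, was at 254, 245 and 247 rescaled TPM after vehicle and 163, 116 and 172 after CCl4 (log2 change -0.74 ± 0.17, adjusted p = 6.68e-03). Ghr kept its call without any 1 library, while the other fall, of Igfbp4, lost it without any 1 of the vehicle libraries. Igfbp3, a carrier of insulin-like growth factor made largely by cells other than hepatocytes, rose from 0.517, 0.796 and 0.753 to 39.5, 49.0 and 12.4. It was under 1 deposited TPM in every vehicle library, so it passed through the CCl4 libraries and had to differ. Igf1 and Stat5b were at rescaled log2 changes of 0.29 and 0.24 (adjusted p = 0.0663 and 0.194) and were not called on all 3 scales.

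The 12 largest falls, ranked by the smallest change over the 3 scales, were led by the major urinary proteins. Mup17 was at 1392, 2197 and 1709 rescaled TPM after vehicle and 4.86, 3.34 and 5.11 after CCl4 (log2 change -8.34 ± 0.22, adjusted p = 1.25e-05). Mup19 was at 7745, 11825 and 9279 against 67, 43.9 and 14 (log2 change -8.05 ± 0.51). Mup genes are near-identical copies among which reads can be split in more than 1 way, so single members are uncertain. The whole family went from 23.1% ± 0.297 of the rescaled TPM to 4.17% ± 0.276 (SD, n = 3 per group, two-sided exact permutation p = 0.1).

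Enzymes of hepatocyte metabolism made up most of the rest. Oat, the ornithine aminotransferase of cells around the central vein, was at 196, 232 and 205 rescaled TPM after vehicle and 41.3, 37.8 and 21.2 after CCl4 (log2 change -2.67 ± 0.25). Cyp2e1, the enzyme that activates CCl4, was at 2861, 3373 and 3125 against 687, 285 and 662 (-2.62 ± 0.33, adjusted p = 8.35e-04). Cyp8b1, which sets the balance of bile acids by making cholic acid, was at 241, 226 and 243 against 27.9, 65.4 and 40.4 (-2.47 ± 0.28). Selenbp2, a selenium-binding protein, fell by 2.69 ± 0.24 and Serpina1e, an alpha-1-antitrypsin of mouse plasma, fell by 2.44 ± 0.30. The remaining members were Elovl3, Hsd3b5, Cyp2c40, Cyp2c37 and Hectd2os. Cyp2c and Serpina1 genes also have close copies, and Hectd2os lies opposite Hectd2, so its reads are certain only if the counting used strand, about which nothing is stated.

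**Figure D2:**
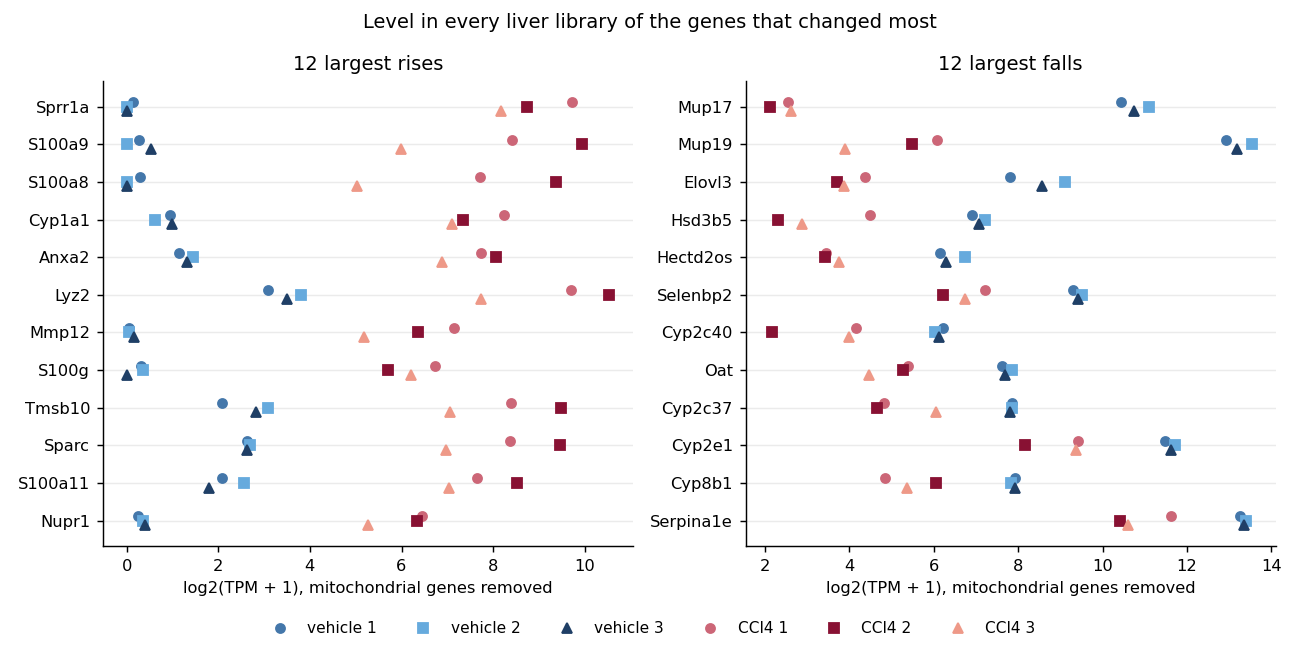
Level of the 12 largest rises (left) and 12 largest falls (right) as log2(TPM + 1) after removal of mitochondrial genes, 1 point for each library (blue, vehicle 1 to 3; red, CCl4 1 to 3). The groups do not overlap for any gene shown, which the rule for choosing them required, and CCl4 library 3 (triangle) lies nearest to the vehicle libraries for most rises.

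Glutamine synthetase, albumin and a master regulator of hepatocytes were not called on all 3 scales, and no direction is read for them. Glul, which marks the first cell layer around the central vein, was at 95.0, 125 and 106 rescaled TPM after vehicle and 125, 157 and 84.8 after CCl4, so the groups overlapped (log2 change 0.14 ± 0.24, adjusted p = 0.62). Alb was at 56090, 61605 and 58299 against 49622, 54843 and 67907 (-0.04 ± 0.15, adjusted p = 0.819). Hnf4a, the regulator, was at 137, 152 and 137 against 120, 77 and 157 (-0.32 ± 0.25, adjusted p = 0.278). On deposited TPM all 3 were lower in every CCl4 library, with log2 changes of -1.54, -1.75 and -1.98, and with median-ratio scaling the changes were -0.78, -0.98 and -1.24. Of the 10 hepatocyte markers 6 fell and 0 rose, and 3 fell without CCl4 library 1 or any 1 of the vehicle libraries.

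Amino acid catabolism and the urea cycle fell most broadly among the metabolic lists: 13 of 29 members fell, 0 rose, and the rescaled median was -0.50. Tdo2, the first enzyme of tryptophan breakdown, was at 926, 1102 and 983 rescaled TPM after vehicle and 350, 204 and 471 after CCl4 (-1.63 ± 0.29, adjusted p = 2.28e-03). Hpd, of tyrosine breakdown, fell by 1.25 ± 0.24 and Bhmt, which remethylates homocysteine, fell by 1.12 ± 0.21 on that scale. CCl4 library 2 had the lowest value for all 3 genes, and by library the list's median was -0.46, -0.98 and -0.24. The count depended on single libraries: 20 members fell without CCl4 library 3, 8 without CCl4 library 1, and 6, 7 and 6 without vehicle libraries 1, 2 and 3.

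Peroxisomal and mitochondrial fatty acid oxidation had the same median, -0.50 on rescaled TPM, with 5 of 24 members that fell and 0 that rose. Slc27a2, the very-long-chain acyl-CoA synthetase, was at 639, 699 and 664 rescaled TPM after vehicle and 371, 266 and 429 after CCl4 (-0.93 ± 0.19, adjusted p = 3.76e-03). The count rose to 14 without CCl4 library 3 and was 1 without any 1 of the vehicle libraries, and Slc27a2 kept its call in each of these fits. Conjugation of drugs (phase II) moved in both directions: 7 of 27 members fell and 2 rose. Sult1b1, a sulfotransferase, fell from 32.2, 36.4 and 31.0 to 11.3, 6.07 and 14.5 rescaled TPM. Gsta1, a glutathione transferase, rose from 12, 16.5 and 13 to 300, 184 and 438 (log2 change 4.30 ± 0.31, adjusted p = 2.31e-04). Gstm3, of the same enzyme class, was at 81.8, 98 and 94.2 against 639, 571 and 1697. It lost its call on all 3 scales without vehicle library 1, and the falls numbered 4 without vehicle library 1 or 3. For both transferases CCl4 library 3 was highest, unlike most rises below.

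Proteins secreted into plasma were split as well. Among plasma carriers and protease inhibitors 6 of 17 members tested fell and 0 rose, with a rescaled median of -0.10. Together the 18 listed genes held 15.3% ± 0.478 of the rescaled TPM after vehicle and 13.2% ± 1.67 after CCl4 (SD, n = 3 per group, two-sided exact permutation p = 0.2). Serpina3k fell by 0.79 ± 0.14 and Serpinc1, antithrombin, fell by 0.59 ± 0.16 on the rescaled log2 scale. Of 20 lipoprotein genes 4 fell and 0 rose. Apoa5, an activator of triglyceride clearance, was at 1266, 1425 and 1398 rescaled TPM against 639, 443 and 810 (-1.15 ± 0.22), and Apoa1, the main protein of HDL, fell by 0.70 ± 0.13. Apoa4 went the other way, with 95.0, 98.9 and 99.4 against 341, 386 and 457, but was not called on deposited TPM (log2 change 0.29). Without CCl4 library 3, 7 lipoprotein genes fell.

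The acute phase, the change in plasma protein synthesis that follows injury, was not seen as a block: 2 of 24 members rose and 2 fell, with a rescaled median of 0.42. Il1rn, the interleukin-1 receptor antagonist, was at 1.52, 1.16 and 1.67 rescaled TPM after vehicle and 72.6, 48.0 and 21.1 after CCl4 (4.14 ± 0.41, adjusted p = 5.32e-04). Socs3, the feedback inhibitor of interleukin-6 signalling, was at 1.58, 4.81 and 3.08 against 34.6, 26.7 and 18.6. Saa4, a constitutive serum amyloid A, fell from 153, 221 and 184 to 86.5, 55.7 and 86.8. The falls numbered 1 without CCl4 library 1 or any 1 of the vehicle libraries. The inducible Saa1, named after its values were seen, was at 474, 465 and 479 against 807, 159 and 488, so its groups overlapped (log2 change -0.25, adjusted p = 0.683). Of 24 hepatocyte transcription factors and nuclear receptors tested, 1 fell (Nr0b2, which represses bile acid synthesis, log2 change -0.95 ± 0.31) and 0 rose. Nr0b2 lost its call without vehicle library 2 or 3.

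Genes of the circadian clock gave 0 calls in the same direction on all 3 scales among 15 tested. That count was also 0 with unadjusted p under 0.05 by limma on all 3, and with robust limma. On single scales 9 were called lower on deposited TPM and 6 higher on rescaled TPM. The rescaled median of the 15 genes, 0.62, lay near that of all genes. In the list of glucose and glycogen genes 1 of 19 tested rose and 1 fell. Pck1, which starts gluconeogenesis, was at 1210, 1128 and 1128 rescaled TPM against 733, 256 and 765. Its fall of 1.14 ± 0.40 lost its call without any 1 of the vehicle libraries. Pkm, the pyruvate kinase of dividing and non-hepatic cells, rose from 1.34, 2.02 and 1.98 to 91.7, 173 and 30.5 (4.85 ± 0.56, adjusted p = 7.09e-04).

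The promoters of 3 cytochrome P450 genes among the largest changes, Cyp2e1 and Cyp8b1 that fell and Cyp1a1 that rose, are shown for their core elements, from RefSeq on GRCm38.p6 (another build than that of the values), as the 150 bases before the start of the gene, 5′ to 3′. Capitals mark the element TATAAA, where transcription factor TFIID binds, and in the promoter of Cyp2e1 also 1 match to CCAAT on the opposite strand; both strands were searched. The window of Cyp2e1 is chr7:140763669-140763818 on the plus strand, that of Cyp8b1 chr9:121916306-121916455 on the minus strand and that of Cyp1a1 chr9:57697463-57697612 on the plus strand.
Cyp2e1: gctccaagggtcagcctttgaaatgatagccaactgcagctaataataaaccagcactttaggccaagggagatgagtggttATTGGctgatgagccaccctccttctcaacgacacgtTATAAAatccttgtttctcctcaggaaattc
Cyp8b1: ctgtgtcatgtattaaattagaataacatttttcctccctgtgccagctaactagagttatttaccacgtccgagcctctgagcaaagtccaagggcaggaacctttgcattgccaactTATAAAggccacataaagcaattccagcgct
Cyp1a1: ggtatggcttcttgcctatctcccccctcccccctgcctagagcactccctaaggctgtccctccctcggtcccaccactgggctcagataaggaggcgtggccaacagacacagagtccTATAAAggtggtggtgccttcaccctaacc
All 3 have TATAAA within the last 31 bases, an element held by 13% of the 27025 RefSeq windows of 250 bases and by 6.82% of those of tested genes. Cyp2c40 and Cyp2c37, the other P450 genes among the 12 largest falls, have no match to it in their windows. TNGCGTG, the letters bound by the AHR receptor, has no match in the 250 bases before the start of Cyp1a1, against a match in 4.16% of all windows. These matches describe letters and name no factor at work.

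The largest rise among enzymes was that of Cyp1a1, the P450 best known as a target of the AHR receptor. It was at 0.936, 0.526 and 0.982 rescaled TPM after vehicle and 301, 162 and 136 after CCl4 (log2 change 6.71 ± 0.30, adjusted p = 5.26e-05). Cyp1a1 was under 1 deposited TPM in every vehicle library, so it passed through the CCl4 libraries and had to differ. Ahr itself was at 11.5, 7.91 and 9.39 against 25.1, 25.1 and 21.4 on that scale and at -0.33 on deposited TPM, so no direction is read for it.

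First among the 12 largest rises, ranked in the same way as the falls, was Sprr1a, a cornified-envelope protein of epithelia that is also induced in injured nerve and muscle. It was at 0.0977, 0 and 0 rescaled TPM in the vehicle libraries and 842, 426 and 288 in the CCl4 libraries (log2 change 8.83 ± 0.36, adjusted p = 4.52e-05). It is also a keratinocyte marker, but of the 10 keratinocyte markers it alone rose. The defining keratins were at or near 0, with Krt5 at no more than 0.07 deposited TPM and Krt1 listed at 0 in all 6 libraries. Anxa2, a membrane-binding annexin, was at 1.21, 1.71 and 1.51 rescaled TPM against 212, 267 and 118 (6.26 ± 0.30). S100a11, a calcium-binding protein of the S100 family, was at 3.23, 4.93 and 2.48 against 199, 369 and 130 (5.59 ± 0.38). S100g, a vitamin D-dependent calcium buffer, was at 0.237, 0.27 and 0 against 106, 51 and 72.8. Nupr1, a small stress-induced chromatin protein, was at 0.181, 0.27 and 0.309 against 86.3, 80.4 and 37.3. None of these groups overlapped. Sprr1a, S100g and Nupr1 were under 1 deposited TPM in every vehicle library, so they passed through the CCl4 libraries and had to differ. The other members of the 12 were S100a8, S100a9, Mmp12 and Tmsb10, described below, and 2 genes of cells other than hepatocytes. Lyz2, the lysozyme of macrophages, was at 7.47, 12.9 and 10.4 against 831, 1471 and 211 (5.86 ± 0.65), and Sparc, a matrix glycoprotein of stellate and endothelial cells, at 5.19, 5.44 and 5.18 against 328, 701 and 125 (5.61 ± 0.55).

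Sprr1a, Anxa2 and S100a11 share 7 letters in front of their starts. Their 150 bases before the start are shown with TGANTCA, the AP-1 site bound by Fos and Jun, in capitals, together with TATAAA in Sprr1a and Anxa2. The windows are chr3:92485882-92486031 on the minus strand, chr9:69453533-69453682 on the plus strand and chr3:93520346-93520495 on the plus strand.
Sprr1a: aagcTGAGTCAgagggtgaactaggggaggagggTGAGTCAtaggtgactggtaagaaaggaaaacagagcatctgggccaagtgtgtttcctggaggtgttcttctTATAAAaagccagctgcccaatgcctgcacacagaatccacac
Anxa2: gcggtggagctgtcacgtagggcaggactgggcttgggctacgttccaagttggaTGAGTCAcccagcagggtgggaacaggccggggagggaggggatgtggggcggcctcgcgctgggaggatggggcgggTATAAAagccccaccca
S100a11: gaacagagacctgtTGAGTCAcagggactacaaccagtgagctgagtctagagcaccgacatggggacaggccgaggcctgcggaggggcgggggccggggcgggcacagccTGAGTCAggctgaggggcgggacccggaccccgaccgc
The matches lie 146 to 140 and 116 to 110 bases before the start in Sprr1a, 95 to 89 in Anxa2, and 136 to 130 and 38 to 32 in S100a11. TGANTCA was found in 3 of the windows of the 12 largest rises, in 0 of the 11 windows of the largest falls, and in 6.87% of all windows of 250 bases. Among the 7876 tested genes with a window the share was 4.38%, among the 757 risen genes 6.61% and among the 303 fallen genes 6.93%.

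Markers of the other liver cells rose with CCl4, and each list is given here ahead of the groups of genes that follow. Some of those groups had the library order of these markers and others, such as mitosis, did not. All 12 markers of sinusoidal endothelial cells rose, with a rescaled median of 4.37 and medians of 4.63, 5.46 and 3.17 in CCl4 libraries 1 to 3. Their summed level was 52.9 to 66.3 rescaled TPM after vehicle and 1854, 3586 and 700.03 after CCl4. All 12 Kupffer cell markers rose as well (median 3.75, by library 4.60, 4.34 and 2.30), from sums of 42.3 to 108 to sums of 412 to 1904. Clec4f, the Kupffer cell lectin, was at 6.37, 21.4 and 12.6 rescaled TPM against 290, 247 and 61.2, and was named after its values were seen. In bulk tissue, more cells of a type and more RNA per cell cannot be told apart, and neither can the loss of hepatocyte RNA be told apart from a gain of the rest.

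Cells that enter from blood were marked more unevenly. Of 9 tested markers of monocytes and recruited macrophages 8 rose, with sums of 62.3 to 87.6 rescaled TPM after vehicle and 568 to 2653 after CCl4. Of 12 neutrophil markers 5 were tested and 4 rose, from sums of 30 to 37.8 to sums of 234 to 1912. S100a9 was at 0.209, 0 and 0.444 rescaled TPM against 339, 980 and 62.9, and S100a8, its partner in calprotectin, at 0.223, 0 and 0 against 208, 660 and 31.7. Ly6g, Camp and Mpo, also on the neutrophil list, stayed near 0, at no more than 0.38 deposited TPM in any library. The neutrophil count was 2 without any 1 of the vehicle libraries. All 7 tested stellate cell and myofibroblast markers rose, from sums of 6.79 to 8.61 to sums of 154 to 534. Acta2, smooth muscle actin, had 0 in each vehicle library and reached 1.11, 1.32 and 0.49 deposited TPM, which left it below the filter.

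T and NK cell markers were low, and the sums of both lymphocyte lists were highest in CCl4 library 2. None of 12 T and NK cell markers passed the filter, and their sum was 1.20 to 2.13 rescaled TPM after vehicle and 19.3, 102 and 4.33 after CCl4. B and plasma cell markers summed to 145, 111 and 133 rescaled TPM after vehicle and 289, 496 and 214 after CCl4. Of 10 listed 3 were tested, 1 rose, and 1 was called lower on deposited TPM. The member that rose was Igkc, the immunoglobulin kappa chain, at 0.95, 1.11 and 0.861 against 126, 212 and 21.9. None of 9 dendritic cell and 6 mesothelial markers passed, with sums of at most 1.30 rescaled TPM after vehicle and 7.62 to 46.6 and 3.45 to 46.8 after CCl4. Cholangiocyte markers were tested for 2 of 10, Spp1 and Sox9, and both rose. Spp1 is also on the list of monocytes and recruited macrophages, and Sox9 lost its call in some of the fits without 1 library. Krt19 and Epcam stayed below the filter at up to 3.63 and 0.47 deposited TPM. Adipocyte, skeletal muscle and pancreatic acinar markers were tested for 0 of 6, 0 of 6 and 1 of 10. CCl4 library 3 had the lowest sum of its group in each of these lists except the adipocyte and acinar ones, and CCl4 library 2 the highest in most.

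**Figure D3:**
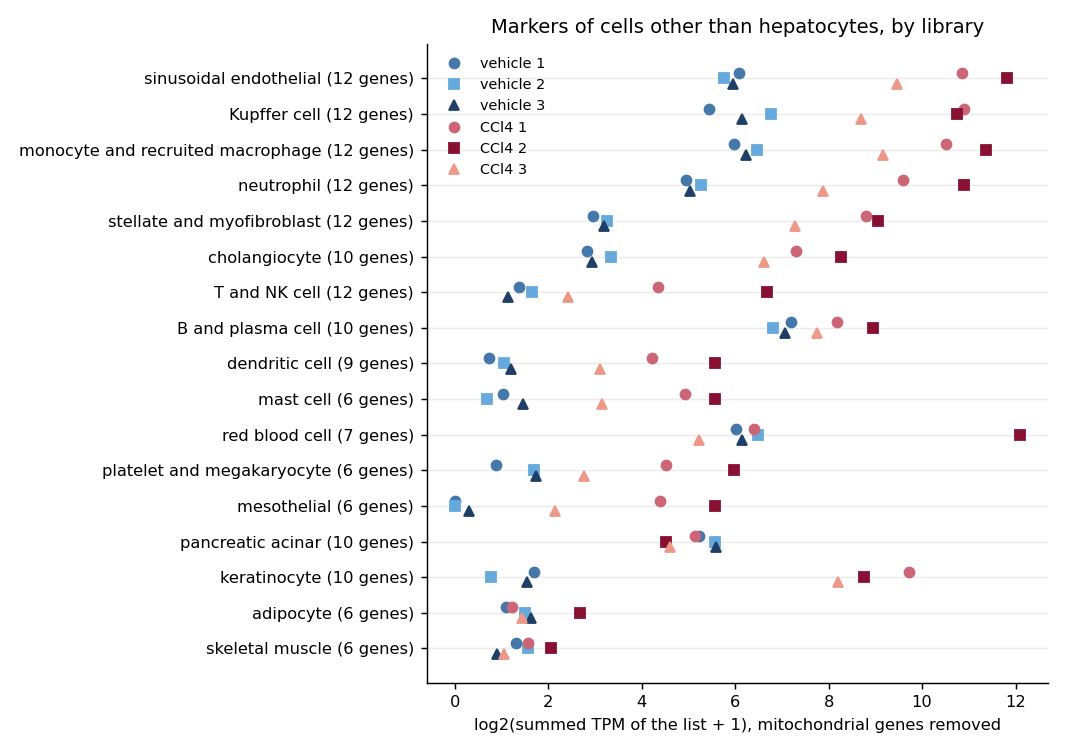
Summed level of each list of cell type markers as log2(summed TPM + 1) after removal of mitochondrial genes (horizontal axis), 1 point for each library (blue, vehicle; red, CCl4), with the number of genes listed. Sinusoidal endothelial, Kupffer, monocyte and stellate lists lie above all vehicle libraries in every CCl4 library, while red blood cell markers are high in CCl4 library 2 alone.

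Genes of cell division were higher in all 3 CCl4 libraries. All 18 mitosis genes that passed the filter rose, with medians of 2.00 on deposited and 3.79 on rescaled TPM, and all 18 kept that call without any 1 library. All 18 were under 1 deposited TPM in every vehicle library, so they passed through the CCl4 libraries and had to differ; the 4 members left out reached no more than 2.26 deposited TPM. Cdk1, the kinase that drives entry into mitosis, was at 0.642, 0.499 and 0.538 rescaled TPM after vehicle and 84.6, 40.4 and 93.7 after CCl4 (5.48 ± 0.31, adjusted p = 1.09e-04). Ube2c, a ubiquitin carrier of the anaphase-promoting complex, was at 0.154, 0.081 and 0.256 against 60.5, 19.6 and 68.9, and Cdc20, an activator of that complex, at 0.112, 0 and 0.0807 against 44.6, 17.8 and 69.5. CCl4 library 3 was highest and library 2 lowest for each of these 3 genes. By library the median was 3.88, 3.45 and 4.33, so mitosis genes were highest in the library where the Kupffer and endothelial lists were lowest.

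DNA replication genes rose less and less evenly. Of 12 tested 5 rose, 1 fell, and the rescaled median was 1.79. Mcm6, of the replicative helicase, was at 0.782, 2.13 and 0.995 rescaled TPM against 17.2, 18.8 and 11.3 (2.88 ± 0.29). Mcm3 rose by 2.90 ± 0.32 and Mcm5 by 2.68 ± 0.24, also helicase subunits. Mcm10, which loads the polymerase and was named after its values were seen, fell from 25.4, 43.8 and 32.8 to 15.8, 17.7 and 14.1 (log2 change -1.02, adjusted p = 4.65e-03). Its vehicle level stood above that of Mcm3 and Mcm6, which did not exceed 2.13. Among 12 tested p53 targets 2 rose, Plk2 and Mdm2. Cdkn1a, the p21 inhibitor of the cell cycle, was at 52.1, 52.3 and 49.4 against 121, 102 and 96.3 and was not called on deposited TPM (log2 change -0.64). Mdm2 lost its call without any 1 of the vehicle libraries.

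Promoters of mitosis genes hold 2 short elements through which they are switched on late in the cell cycle, CCAAT and TTTGAA (the cell cycle homology region, CHR). The windows of Cdk1, Ube2c and Cdc20, added after their values were seen, are chr10:69352913-69353062 on the minus strand, chr2:164769779-164769928 on the plus strand and chr4:118437344-118437493 on the minus strand. Capitals mark both elements on either strand.
Cdk1: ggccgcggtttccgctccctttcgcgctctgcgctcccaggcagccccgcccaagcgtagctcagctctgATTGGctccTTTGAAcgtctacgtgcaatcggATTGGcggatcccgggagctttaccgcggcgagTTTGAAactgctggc
Ube2c: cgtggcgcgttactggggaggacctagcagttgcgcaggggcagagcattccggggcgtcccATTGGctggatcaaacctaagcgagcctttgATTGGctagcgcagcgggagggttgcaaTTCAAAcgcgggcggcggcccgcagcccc
Cdc20: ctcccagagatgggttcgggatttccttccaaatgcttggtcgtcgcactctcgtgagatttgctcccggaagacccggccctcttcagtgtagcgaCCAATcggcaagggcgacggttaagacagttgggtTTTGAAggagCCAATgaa
CCAAT was found in 17 of the 18 mitosis genes that have a window (94.4%), against 34.5% of all windows and 32.6% of the windows of all risen genes. TTTGAA was found in 8 of 18 (44.4%), against 16.3% of all windows. These shares are properties of the list and would be the same had the genes not changed.

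For genes of protein synthesis the direction mostly depended on the scale. Cytosolic ribosomal proteins, 89 genes, held 3.03% ± 0.0657 of the rescaled TPM after vehicle and 6.48% ± 0.898 after CCl4 (SD, n = 3 per group, two-sided exact permutation p = 0.1). On deposited TPM they held 2.22% ± 0.0676 and 1.46% ± 0.306, so the direction of this share depends on the scale. Of 22 ribosome biogenesis genes 3 rose and 0 fell, a share near that of all genes, with a rescaled median of 1.30. On rescaled TPM alone 21 of the 22 were called higher, against 66.8% of all genes. On deposited TPM 3 were called higher and 3 lower. Nop56, a core protein of the nucleolar RNA-modifying complex, was at 13.4, 15.3 and 12.5 rescaled TPM against 103, 128 and 67.9 (2.73 ± 0.24, adjusted p = 3.94e-04). Myc, the transcription factor that drives this program, was at 11.6, 3.33 and 7.95 against 54, 56.4 and 44.8. It was lowest in vehicle library 2 and lost its call without CCl4 library 1, CCl4 library 3 or vehicle library 2. Without vehicle library 2, 1 member of the list rose. None of 40 proteasome genes was called the same way on all 3 scales. That count was also 0 with unadjusted p under 0.05 by limma on all 3, and with robust limma. On single scales 36 were called lower on deposited TPM and 29 higher on rescaled TPM. The rescaled changes of the 40 genes ran from 0.12 to 1.13 around a median of 0.64.

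Few members of the stress lists rose on all 3 scales. On rescaled TPM 16 of 18 endoplasmic reticulum stress genes and 16 of 17 heat shock genes were called higher. For NRF2 and redox genes it was 11 of 17, and for all genes 66.8%. On deposited TPM the genes called lower numbered 2, 1 and 9 in these lists, in that order. Of 18 genes of the endoplasmic reticulum and integrated stress response 5 rose (rescaled median 1.57). Ddit3, the CHOP transcription factor that links that stress to cell death, was at 10.4, 6.34 and 8.27 rescaled TPM against 146, 176 and 125 (4.01 ± 0.21, adjusted p = 7.97e-05). Asns, asparagine synthetase, rose from 1.05, 0.959 and 0.969 to 28.8, 10.8 and 11.4. Fgf21, a hormone released by the stressed liver and named after its values were seen, rose from 0.307, 0.175 and 0.511 to 12, 7.49 and 8.81. The count was 2 without CCl4 library 1 and 3 without CCl4 library 3, vehicle library 2 or vehicle library 3. Of 17 heat shock genes 5 rose (3 without CCl4 library 1 or any 1 of the vehicle libraries), led by the small chaperone Hspb1, at 11.2, 10.8 and 12.9 rescaled TPM against 255, 110 and 71.9. Among 17 tested NRF2 targets and redox genes 4 rose, in each fit without 1 library as well, and 1 fell. The fall, of the glutathione peroxidase Gpx1 (log2 change -0.45 ± 0.17), stayed called without CCl4 library 3 or vehicle library 2 but in no other such fit. Hmox1, which breaks down heme, was at 2.97, 3.81 and 3.62 against 144, 125 and 46.3, and Srxn1, which repairs peroxiredoxins, at 14.8, 14.3 and 15.8 against 325, 155 and 180.

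Iron genes hold a receptor pathway of their own. Bmp6, the endothelial ligand that sets hepcidin, was at 0.503, 0.567 and 0.484 rescaled TPM against 16.6, 16.4 and 4.26, and Id1, a target of that ligand, at 2.44, 5.29 and 3 against 57.6, 69.2 and 43.6. Both rose and were the only 2 of 18 members of the metallothionein and iron list that did. That share is near the 10.1% of all genes, so the count says nothing particular about the list. Bmp6 was under 1 deposited TPM in every vehicle library and passed through the CCl4 libraries. The ferritin genes Ftl1 and Fth1 went up on rescaled TPM (log2 changes of 0.83 and 0.72) and down on deposited TPM (-0.88 and -0.98), so no direction is read.

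The cytoskeleton and its calcium-binding partners rose widely. Of 31 tested actin and tubulin genes 16 rose and 0 fell (rescaled median 2.71). Tmsb10, which binds actin monomers, was at 3.20, 7.42 and 6.05 rescaled TPM against 337, 716 and 133 (5.66 ± 0.58), and Vim, the intermediate filament of mesenchymal and blood cells, at 0.614, 2.78 and 1.98 against 110, 223 and 36.9. Tubb6, a beta-tubulin named after its values were seen, had another order: 66, 37.6 and 60.3 in CCl4 libraries 1 to 3 against 2.83 to 3.65. Tmsb10 and Vim followed the endothelial list in being highest in CCl4 library 2, and the part of those cells in these values was not tested. Of 18 tested S100 proteins and annexins 9 rose. Actb, often taken as a reference, was at 431, 194 and 336 rescaled TPM against 1012, 1234 and 862 and at a deposited log2 change of 0.04. Gapdh, another common reference, was at 1744, 1669 and 1651 against 2330, 1797 and 2787 (rescaled log2 change 0.43, adjusted p = 0.0597) and at -1.28 on deposited TPM. None of the 16 reference genes was called the same way on all 3 scales. That count was also 0 with unadjusted p under 0.05 by limma on all 3, and with robust limma. On single scales 12 were called lower on deposited TPM and 11 higher on rescaled TPM. The medians of the 16 genes, -0.84 and 0.78 on deposited and rescaled TPM, were close to those of all genes.

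Targets of YAP and TGF-beta, pathways that respond to tissue stiffness and injury, rose for 9 of 16 tested members. Thbs1, a matrix protein that activates TGF-beta, was at 0.014, 0 and 0 rescaled TPM against 27.1, 28.2 and 10.1 (4.38 ± 0.38, adjusted p = 3.88e-04). Tgfb1, the ligand itself, rose from 0.908, 1.03 and 0.847 to 33.5, 65 and 15.5. Among 14 tested collagens and their chaperones 12 rose, in each fit without 1 library too, and 1 fell. The fall, of Col18a1 (log2 change -0.42 ± 0.13), was lost without CCl4 library 1 or any 1 of the vehicle libraries. Col3a1, of fibrillar collagen, was at 0.559, 0.756 and 0.619 rescaled TPM against 79.0, 129 and 31.3. Of the 11 tested proteases and inhibitors 7 rose. Mmp12, the macrophage elastase, was at 0.0419, 0.027 and 0.108 rescaled TPM against 142, 80.6 and 35 (6.14 ± 0.45), Mmp13, the collagenase of matrix breakdown, was listed at 0 after vehicle and reached 26.8, 17.2 and 7.49, and Timp3, an inhibitor of such enzymes, rose from 1.19, 0.877 and 0.969 to 64.3, 81.9 and 22.4. Genes of synthesis and of breakdown thus rose side by side. Of these lists 4, 8 and 6 of the tested members were under 1 deposited TPM in all vehicle libraries and passed through the CCl4 libraries. The same held for 5 actin and tubulin genes, 7 S100 proteins and annexins, 10 chemokine genes, 7 hepatokines and cytokines, 4 itch-related genes, 3 lysosome genes, 2 genes each of the NRF2, DNA replication and interferon lists, and 4 markers each of monocytes, neutrophils and stellate cells. It held as well for Igfbp3, Bmp6, Cyp1a1, Nupr1, the keratinocyte marker Sprr1a and the B and plasma cell marker Igkc. The heat shock, endoplasmic reticulum stress and antigen presentation lists had 1 such gene each. Such genes had to differ to be tested, so these counts do not stand for their whole lists.

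Signals between cells rose across several families. Of 17 tested chemokine genes 13 rose and 0 fell, with a rescaled median of 3.50 that was 3.77, 3.71 and 2.45 by library. Cxcl2, which draws neutrophils, was at 0.251, 0.0675 and 0.242 rescaled TPM against 73.9, 74.9 and 28.9 (5.55 ± 0.37, adjusted p = 1.83e-04). Ccl2, which draws monocytes, was at 0.196, 0.446 and 0.538 against 81.5, 59 and 33. Ccl6, abundant in macrophages and granulocytes, was at 0.908, 2.15 and 3.01 against 150, 320 and 26.6. Cxcl2 was nearly level in CCl4 libraries 1 and 2 and Ccl2 was highest in library 1, whereas Ccl6 had the order of the monocyte list. The part of those cells in these values was not tested. Ccl4, another macrophage chemokine, was listed at 0 after vehicle and reached 15.9, 25.2 and 6.46.

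Of 23 tested hepatokines and cytokines 12 rose and 2 fell. Hgf, the mitogen that stellate and endothelial cells release to hepatocytes, was at 0.168, 0.203 and 0.0942 rescaled TPM against 47, 31.2 and 13.6 (4.61 ± 0.41, adjusted p = 4.08e-04). Il1b was at 0.196, 0.446 and 0.404 against 55.5, 108 and 21.1, and Il1a at 1.23, 0.648 and 0.874 against 62.4, 123 and 29.1. Inhbb, the subunit of activin B, rose from 0.181, 0.0405 and 0.0942 to 18, 18.1 and 6.71. Hgf was highest in CCl4 library 1 and Inhbb level in libraries 1 and 2, while Il1a and Il1b were highest in library 2. The 2 falls, named after their values were seen, were Angptl4, an inhibitor of lipoprotein lipase, at a log2 change of -1.34, and Enho, the adropin precursor, at -0.57. The falls numbered 0 without CCl4 library 3 or vehicle library 3 and 1 without CCl4 library 2, vehicle library 1 or vehicle library 2.

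The series title concerns itch, so signals that reach itch nerves were listed. Of 22 such genes 6 passed the filter and 4 rose, in each fit without 1 library as well. All 4 that rose were under 1 deposited TPM in every vehicle library, so they passed through the CCl4 libraries and had to differ. The fits without 1 library tested the same genes, so they share this limit. Hdc, which makes histamine, was at 1.35, 0.486 and 1.30 rescaled TPM after vehicle and 24.1, 40.5 and 7.62 after CCl4. Osmr, part of the receptors for oncostatin M and interleukin-31, rose from 0.181, 0.189 and 0.121 to 12.8, 12.6 and 4.92, and Il33, an alarmin released by damaged cells, rose from 0.796, 0.486 and 0.794 to 14.3, 9.16 and 5.36. Il31, Il4, Il13 and Penk were listed at 0 in all 6 libraries. Mdk, the midkine gene of the title, had 0 after vehicle and 0.87, 0.83 and 0.27 deposited TPM after CCl4, below the filter. Cx3cr1, the fractalkine receptor, was at no more than 0.01 against 0.45, 2.06 and 0.44 and also stayed below it.

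Genes of phagocytes rose with the macrophage lists. Of 30 tested genes of lysosome and phagocytosis 12 rose, in each fit without 1 library too, and the median by library was 1.78, 2.09 and 0.93. Gpnmb, a marker of macrophages that have taken up debris, was at 0, 0.054 and 0 rescaled TPM against 65.9, 91.4 and 24 (5.72 ± 0.45, adjusted p = 2.78e-04). Trem2, a lipid receptor of such cells, was at 0.014, 0.0675 and 0.215 against 47.1, 49.6 and 10, and Cd63, a tetraspanin of late endosomes found in many cell types, at 1.20, 0.769 and 1.41 against 117, 118 and 60.9. Of 14 tested genes of antigen presentation 5 rose. Cd74, the invariant chain of class II molecules, was at 6.51, 18.1 and 11.4 rescaled TPM against 244, 428 and 48.7, with CCl4 library 3 far below the other CCl4 libraries. The count was 1 without CCl4 library 1, vehicle library 1 or vehicle library 3, and Cd74 lost its call in these fits.

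Interferon-response genes rose for 6 of 21 tested members. Mx2, an antiviral GTPase, was at 5.57, 4.12 and 4.4 rescaled TPM against 58.4, 37.8 and 44.9 (3.06 ± 0.20, adjusted p = 1.85e-04). Ifit2, which binds foreign RNA, was at 0.642, 0.959 and 0.74 against 26.1, 29.4 and 8.40. Rsad2, viperin, was at 5.71, 4.55 and 4.82 against 49.6, 28.8 and 26.4 (2.52 ± 0.25). Its promoter, chr12:26456453-26456602 on the minus strand, is shown because it holds the interferon-stimulated response element, found on the opposite strand and set in capitals; the window was added after its values were seen.
Rsad2: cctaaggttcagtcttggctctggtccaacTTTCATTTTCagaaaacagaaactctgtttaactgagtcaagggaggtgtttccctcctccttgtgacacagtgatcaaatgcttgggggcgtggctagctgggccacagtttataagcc
That element was found in 9 of the 17 interferon genes with a window (52.9%), against 3.04% of all windows. Ifit2 and Oasl2 have a window without a match, and the list was assembled from known targets, so the share describes the list.

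Lipid storage changed in both directions. Of 14 tested lipid droplet genes 4 rose and 3 fell. Cd36, a fatty acid translocase, was at 8.6, 8.84 and 8.64 rescaled TPM against 179, 380 and 79.9, and Fabp4, a fatty acid carrier of endothelial cells, macrophages and fat, at 2.89, 1.82 and 2.18 against 121, 311 and 46.4. Hilpda, an inhibitor of lipolysis induced by hypoxia, was at 7.21, 2.20 and 6.03 against 45.7, 51.4 and 26.9. Lpin1, which makes diacylglycerol, fell from 40.4, 60.9 and 47.2 to 18.6, 18.4 and 19.7 (-1.32 ± 0.18, adjusted p = 9.55e-04). The falls numbered 1 without CCl4 library 1, vehicle library 2 or vehicle library 3, while Lpin1 kept its call. Fabp4 and Cd36 had the library order of the endothelial list, whereas adipocyte markers summed to 1.14 to 5.42 rescaled TPM in all 6 libraries.

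Genes of the fetal liver and of ductular cells were mostly too low to test. Of 21 listed 5 passed the filter, and 16 stayed below it at up to 4.62 deposited TPM. Spp1, osteopontin, was at 3.52, 6.91 and 3.43 rescaled TPM against 117, 260 and 77.0 and rose (4.63 ± 0.45). Sox9, a transcription factor of ductular cells and progenitors, was at 2.16, 1.77 and 2.02 against 15.2, 10.1 and 12.4 (2.17 ± 0.20) and lost its call without CCl4 library 1, vehicle library 2 or vehicle library 3. Afp, alpha-fetoprotein, named after its values were seen, was at 0.70, 0.79 and 0.73 deposited TPM against 0.98, 2.55 and 4.08, below the filter. Krt18, a keratin of hepatocytes and ducts, was at 304, 125 and 230 rescaled TPM against 794, 755 and 720 and was not called on deposited TPM (log2 change 0.16).

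**Figure D4:**
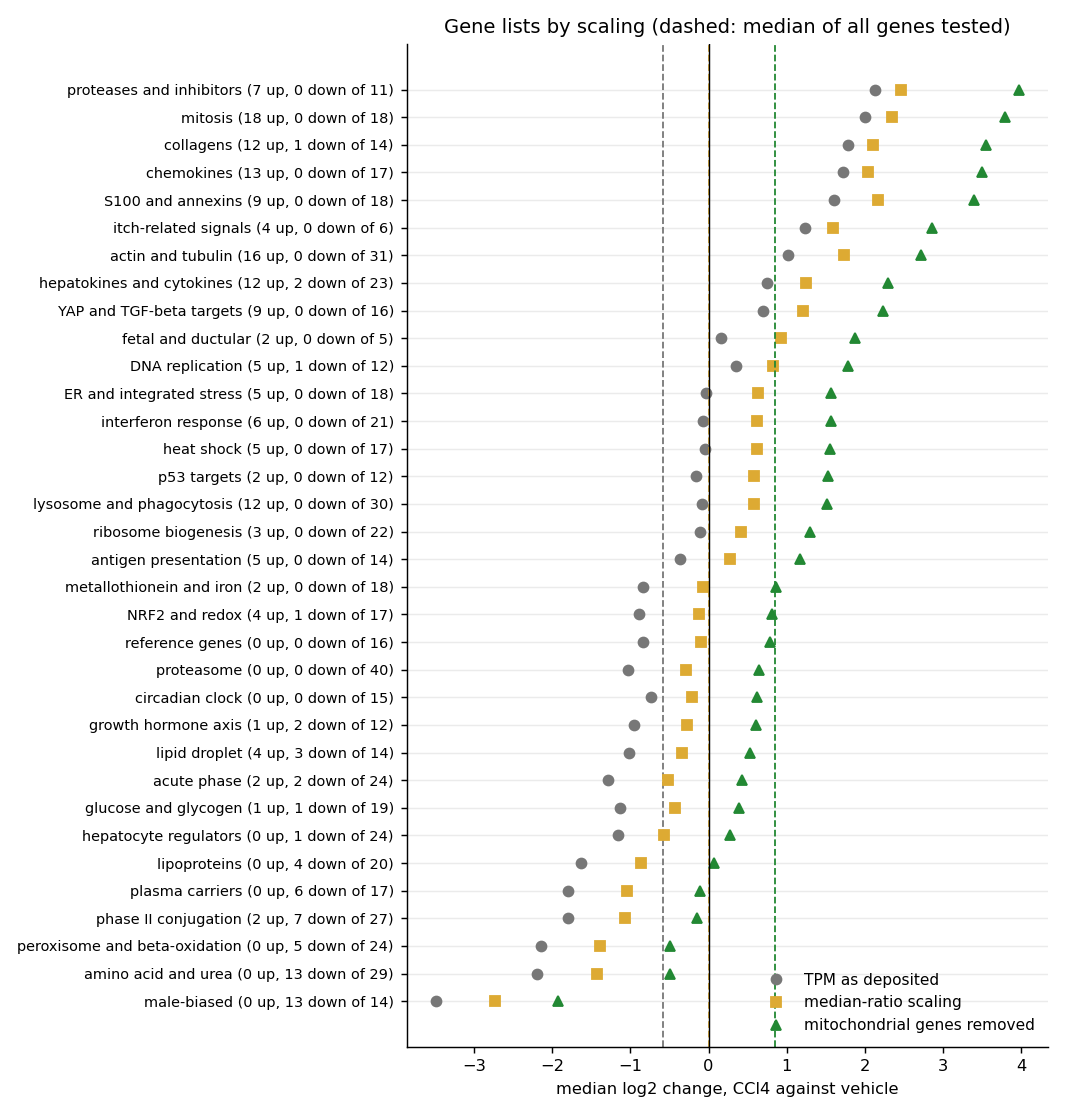
Median log2 change of each function list with at least 5 genes tested (horizontal axis), as deposited TPM (circles), with median-ratio scaling (squares) and after removal of mitochondrial genes (triangles), with counts of genes that rose and fell on all 3 scales; dashed lines give the medians of all genes. Male-biased, amino acid and peroxisome lists lie below the dashed line of their scale, while proteases and mitosis lie farthest above it on all 3 scales.

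The 3 CCl4 libraries can be read as 3 degrees of change, but not in 1 order for all lists. In rescaled TPM the non-parenchymal, chemokine and matrix lists were lowest in CCl4 library 3, which also had the smallest mitochondrial share. The amino acid, phase II, peroxisome and hepatocyte lists were lowest in CCl4 library 2, but plasma carriers and lipoproteins in CCl4 library 1. Mitosis was highest in library 3, and the endoplasmic reticulum and heat shock lists were highest in library 1. With 1 library for each state no test of this order can be made.

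**Figure D5:**
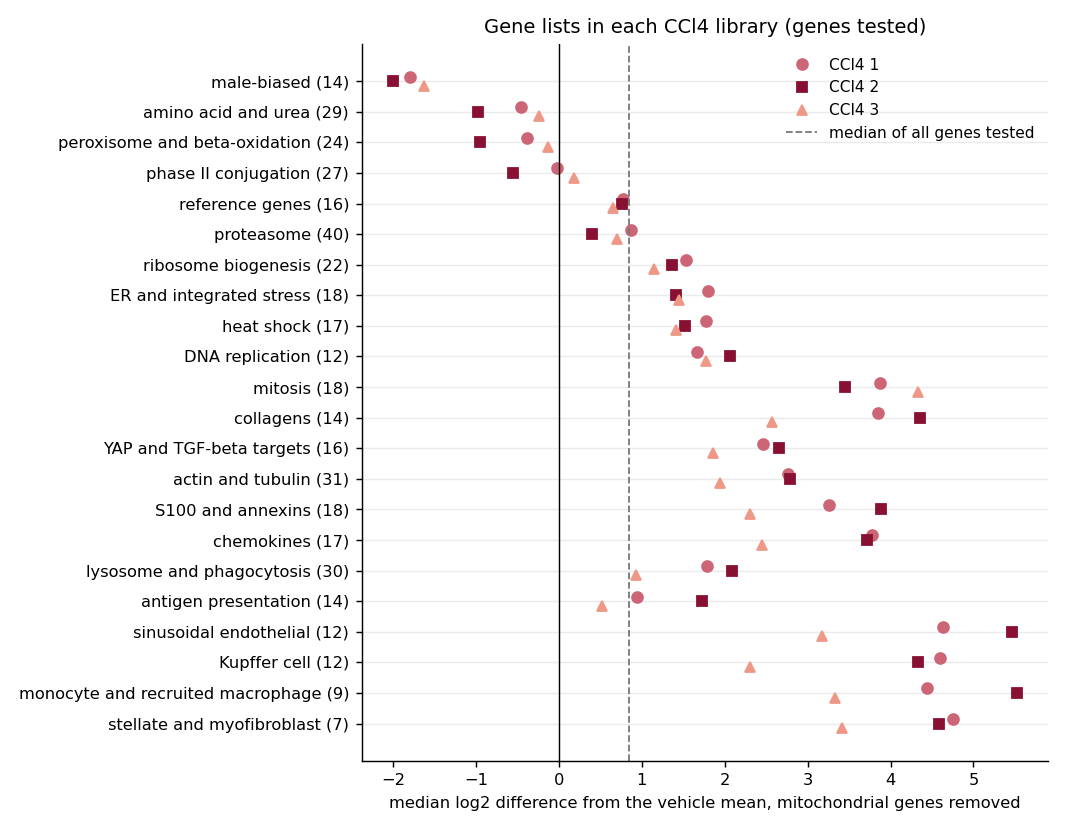
Median log2 difference of each list from the vehicle mean after removal of mitochondrial genes (horizontal axis), 1 point for each CCl4 library, with the number of genes tested; the dashed line is the median of all genes. Library 3 (triangle) is lowest for endothelial, Kupffer, chemokine and matrix lists and highest for mitosis, at 4.33.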

How the data were processed

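Gene levels were measured by stranded poly(A) RNA-seq in 3 CCl4 and 3 vehicle livers. The authors deposited 1 table of TPM for all libraries, a unit that keeps no read depth, so depth per library is unknown and no counting interval can be given. The submitters' processing notes name fastp, HISAT2, StringTie, RSEM and GRCm39, without roles or versions. Groups and replicate numbers came from the labels. The members and gene lists were chosen with earlier results of these data known.

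Genes with a TPM of 1 or more in 3 or more libraries were tested on log2(TPM + 1) with limma 3.58.1 in R 4.3.3 (linear model on 6 libraries, empirical Bayes with a trend, two-sided, Benjamini-Hochberg adjustment over all genes tested). A fold change on this scale understates the change of low genes. The fit was checked on simulated data. Adjusted p-values in the text are from limma on rescaled TPM unless another scale is named, and errors of log2 changes are standard errors with 3 libraries per group. Shares were compared by an exact permutation test. Replicates are livers the design text calls biological. The limma p-values set the difference between groups against the spread between these livers, drawn by empirical Bayes toward the trend of all genes.

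Named genes were the 12 largest rises and 12 largest falls (called on all 3 scales, groups not overlapping, a mean of 10 TPM or more in the higher group, ranked by the smallest of the 3 changes, with unnamed genes and further Mup genes left out), up to 5 genes of each function list, and 9 genes of the tissue and study. Hba-a2, Atf3, Nat8f5, Igf1, Stat5b, Saa1, Krt5, Krt1, Clec4f, Ly6g, Camp, Mpo, Acta2, Igkc, Krt19, Epcam, Mcm10, Fgf21, Tubb6, Angptl4, Enho, Il31, Il4, Il13, Penk and Afp lie outside that rule and were chosen after their values were seen. All 939 list entries matched a symbol. Alternatives were other pseudocounts and filters, robust variances, a replicate block, other scalings, a fold minimum and the removal of each library. 1 listed gene is not reported here by name.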

Additional observations from a re-analysis of the deposited data

How the results depend on the processing

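On deposited TPM 6377 genes were called. A filter at 5 TPM in 3 libraries gave 4084 and a minimum absolute log2 change of 1 gave 3707. On rescaled TPM the count was 7359, which became 3785 with that filter and 4391 with that minimum. Other pseudocounts, robust variances and a looser filter kept both totals within 1.5 times, but the looser filter moved the higher calls on deposited TPM from 1073 to 2400 and the lower from 5304 to 5243. Without 1 library they ran from 4874 to 7607 and from 5963 to 7589, and the count on all 3 scales, 1483, ran from 1121 to 1712. Of those that fell, 245 to 627 were called without 1 library, against 435. Requiring quantile normalization as well left 1449. The mitochondrial share differed by 50.2 percentage points, by 35.1 with mt- genes alone and by 47.5 to 54.5 without 1 library.

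Same-numbered libraries did not pair: their deviations from the group means correlated at -0.028, 0.081 and 0.041 across genes. A replicate block gave 6493 calls on deposited and 7062 on rescaled TPM.

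Genes negative on deposited TPM turned positive after removal of mitochondrial genes, at 0.29 for Igf1, 0.24 for Stat5b, 0.14 for Glul, 0.43 for Gapdh, 1.24 for Ahr, 1.03 for Cdkn1a, 0.83 for Ftl1 and 0.72 for Fth1. Quantile normalization gave 0.87 for Ftl1, 0.86 for Fth1, 0.44 for Gapdh, 0.20 for Ahr and 0.36 for Cdkn1a, but -0.06 for Igf1, -0.71 for Stat5b and -0.37 for Glul. The cause was not tested. List counts without single libraries were added after the data were seen. TPM carries no depth, so the precision of low genes is unknown.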
